A study of Homo sapiens with 2 samples.

Results

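ETV4 peaks that lay at the ends of more than 1 protein-coding gene were picked out of the peak list by position alone. A peak was taken when its summit, the base of highest read coverage, lay within 1 kb of an end of 2 or more different protein-coding RefSeq genes on hg38. Of 54389 peaks, 1749 met this rule. They made up 15.6% (95% Wilson interval 15.0 to 16.3) of the 11181 peaks within 1 kb of any protein-coding gene end and 3.22% of all peaks. The other 9432 peaks at gene ends lay at exactly 1 gene and served as the comparison set, called single-gene peaks here. The peaks came from A549, an established human lung adenocarcinoma line of the non-small cell type (NSCLC). Its ETV4 had been knocked down with a short hairpin (A549-shETV4), and Flag-ETV4 was then transfected back and precipitated with a Flag antibody, so the list describes exogenous tagged ETV4 and not the endogenous protein. The list was called on 1 immunoprecipitate against 1 input, with no replicate, so there was no SD and no test between peak sets, and the input could be seen only through the fold. Peaks are not replicates either, and each interval given here is a 95% interval that covers counting error only.

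ETV4 belongs to the PEA3 group of the ETS family, whose members bind DNA through a winged helix that reads a GGAA core, most tightly when it is preceded by CC. Many human genes stand head to head, with their starts close together on opposite strands, so that a single stretch of DNA serves as the promoter of both. Such bidirectional promoters are mostly CpG islands, lack a TATA box and often serve genes of DNA repair, mitochondria and other housekeeping functions.

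Short sequences show what lay under some of these summits. Every stretch looked up that held the letters marked below is shown. Those at NPAT/ATM, ACACA/TADA2A, HSPD1/HSPE1, TAP1/PSMB9 and TBP/PSMB1 were also looked up, held none of the marked letters and are not shown. The sequences below are the 30 bases on each side of the summit, read on the plus strand of GRCh38.p14 from RefSeq promoter windows. Capitals mark CCGGAA, the ETS core with its favoured flank, or TTCCGG, the same letters on the other strand. SENP1/PFKM and PSMD13/SIRT3 start head to head, overlapping in the former and apart in the latter. SURF1/SURF2 have ends close together, but the direction of SURF2 was not available. TIMM13/LMNB2 is a start beside a neighbour's 3′ end, and the last 2 are summits without the marked letters.
SENP1/PFKM, chr12:48106005-48106065: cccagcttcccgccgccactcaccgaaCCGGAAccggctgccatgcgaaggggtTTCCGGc
SURF1/SURF2, chr9:133356439-133356499: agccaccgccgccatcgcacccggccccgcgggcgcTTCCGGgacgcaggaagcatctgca
PSMD13/SIRT3, chr11:236971-237031: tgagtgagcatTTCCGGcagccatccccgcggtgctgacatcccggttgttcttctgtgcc
TIMM13/LMNB2, chr19:2427546-2427606: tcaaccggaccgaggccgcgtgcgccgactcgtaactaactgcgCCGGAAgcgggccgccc
GON7/UBR7, chr14:93207080-93207140: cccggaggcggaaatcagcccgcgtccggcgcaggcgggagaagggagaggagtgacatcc
TPRA1/MCM2, chr3:127598270-127598330: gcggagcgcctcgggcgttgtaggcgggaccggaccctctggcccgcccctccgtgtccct

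The peak at SENP1, a SUMO protease, and PFKM, the muscle phosphofructokinase, had the highest fold of all 1749, 142 over the control level. A pileup of 571 fragments (exact Poisson interval 525 to 620) stood at its summit. The stretch shown there held 2 CCGGAA matches, the nearer one centred 0.5 bases from the summit. The peak at SURF1, an assembly factor of cytochrome c oxidase, and SURF2 had a fold of 34.3 from a pileup of 93. Its summit lay 18 bp inside SURF1, with 1 match centred 8.5 bases away. The peak at PSMD13, a subunit of the proteasome lid, and SIRT3, the mitochondrial deacetylase, had a fold of 45.8 from a pileup of 122. Its match was centred 16.5 bases from the summit, which lay 25 bp inside PSMD13 and 70 bp from the start of SIRT3. Folds differed widely at like letters. The peak at TIMM13 and LMNB2 held the same 6 letters at the same distance of 16.5 bases but reached only 5.03 from a pileup of 25. The second strongest peak, at the KEOPS subunit GON7 and the ubiquitin ligase UBR7, had a fold of 115 and a pileup of 446 without CCGGAA in the stretch shown.

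The genes at the ends fell into arrangements that differed in number and in fold. Directions came from the promoter table, which gave them for 15812 of 19970 protein-coding genes and for both nearest genes at 1309 peaks (74.8%). No directions or sequences were used for chromosome 8, so its 64 shared peaks, among them those at PRKDC/MCM4 and CCAR2/C8orf58, enter none of the results on arrangement, gap, occupied starts or letters. Of these 1309, 916 (69.98%) were head to head, with 684 pairs whose starts stood apart and 232 whose genes overlapped at their starts. In 209 peaks a start stood beside the 3′ end of a neighbour without overlap, in 84 the genes started on the same strand, in 54 the 3′ ends met tail to tail, and 46 fell in the remaining classes. Most of the peaks, 1683, touched 2 genes, 62 touched 3 and 4 touched 4. Readthrough genes, which RefSeq lists as joint transcripts of neighbours, took part in 71 of the peaks.

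The fold at the summit is the ratio of immunoprecipitate to control coverage, each with 1 added. Its median was highest at the head-to-head pairs, but the intervals overlapped with those of several other arrangements. The median fold was 17.2 (15.4 to 18.5) for the pairs apart and 18.2 (16.2 to 20.5) for those overlapping. It was 13.1 (11.4 to 15.5) where a start stood beside a 3′ end and 10.01 (7.66 to 11.6) where 3′ ends met. Head-to-head medians thus had intervals apart from the tail-to-tail interval and overlapping with each other. Width went the same way, with medians of 1113.5 bp for head-to-head pairs apart, 923 bp for head to tail and 537.5 bp for tail to tail. The 440 peaks with a direction missing lay between, at a median fold of 13.1 and 933.5 bp.

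**Figure D1:**
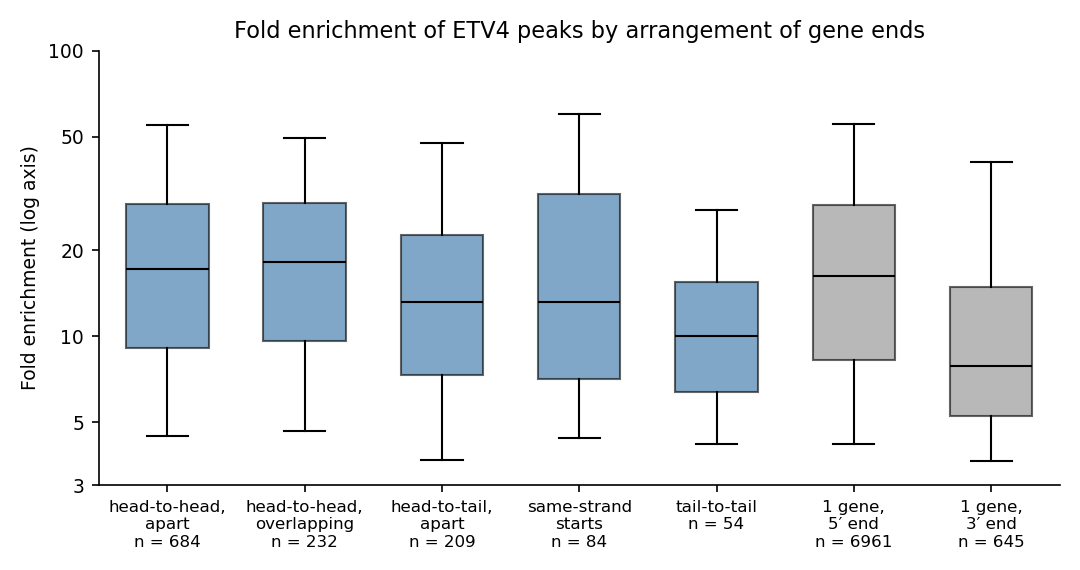
Fold over the control level, on a log axis, for shared peaks by arrangement of the nearest pair (blue) and for single-gene peaks at a 5′ or a 3′ end (grey). Boxes span the quartiles with the median as a line and whiskers reach the 5th and 95th percentiles. Medians of the shared peaks run from 10.01 at tail-to-tail ends to 18.2 at overlapping head-to-head starts, and the boxes overlap.

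Over the whole set, shared and single-gene peaks had the same median fold to 3 digits. It was 15.3 (14.4 to 16.2), with quartiles of 7.93 and 27.0, for shared peaks, and 15.3 (14.9 to 15.6), with quartiles of 7.61 and 27.9, for single-gene peaks. Of the shared peaks, 50.3% (47.9 to 52.6) lay above the single-gene median. A fold of 50 or more was reached by 98 of the shared peaks (5.60%) and 637 of the single-gene peaks (6.75%). Part of the comparison set sat at lone 3′ ends, where the 645 peaks had a median fold of 7.88. Against the 6961 single-gene peaks at a 5′ end, whose median was 16.2 (15.8 to 16.6), the head-to-head medians of 17.2 and 18.2 had overlapping intervals. The median pileup was 48 fragments at shared peaks and 46 at single-gene peaks, while the median control level was 2.199 against 2.025. The control level stood at its lowest value, 1.28, in 10.2% of the shared and 17.9% of the single-gene peaks, and the part of this in the fold was examined only by binning. Among peaks with a control level of 2 to 3, the medians were 14.5 (13.2 to 16.1) for shared and 16.4 (15.6 to 16.9) for single-gene peaks, and among those above 3 they were 15.6 (12.9 to 17.1) and 14.3 (13.4 to 15.2), so the order changed with the bin and the intervals overlapped.

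Shared peaks were wider over the whole set. The median width was 1035 bp (987 to 1068) against 940 bp (923 to 954) for single-gene peaks and 994 bp (976 to 1009) for those at a 5′ end. Peak width rose with fold in both sets, so widths were set side by side within bins of fold. At a fold of 10 to 20 the shared peaks had a median of 1073 bp (1001 to 1141) and the single-gene 5′ peaks 987.5 bp (962 to 1009), with intervals that overlapped by a few bases. At a fold of 5 to 10 the medians were 689.5 bp (634 to 752) and 636 bp (613 to 655). At a fold of 20 to 40 they were 1341 and 1317 bp, and at 40 or more the shared peaks were the narrower, 1447.5 against 1456 bp, and the intervals overlapped in each bin. Of the comparison set at 5′ ends, 1521 peaks also had the end of a long noncoding RNA within 1 kb. These peaks had a median width of 1096 bp (1057 to 1134) and a fold of 17.6, close to the head-to-head values, whereas the 5440 without such an end had 962 bp (944 to 984) and 15.8. A long noncoding RNA end lay near only 7.03% of the shared peaks and 20.3% of the single-gene peaks.

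**Figure D2:**
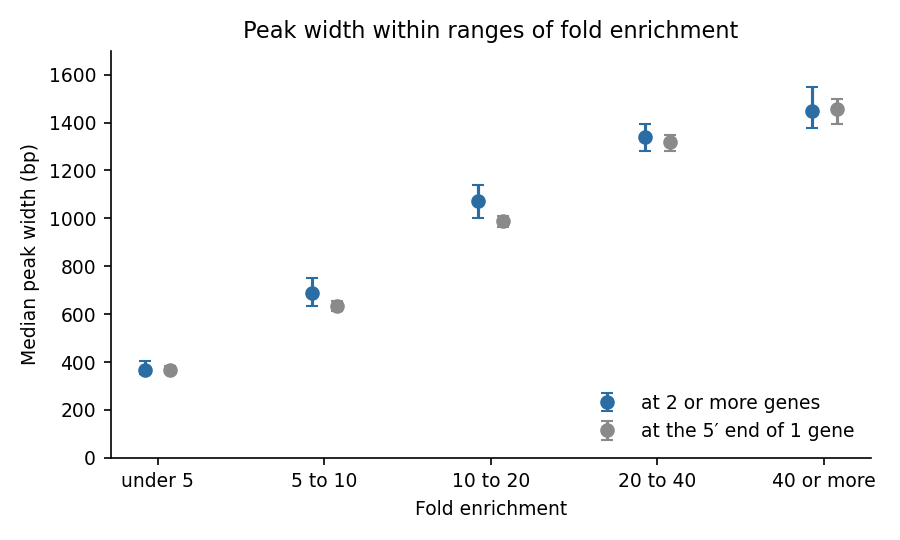
Median peak width in bp within bins of fold, for shared peaks (blue) and single-gene peaks at a 5′ end (grey), with bars for the 95% interval of the median. Width climbs from under 400 bp at folds below 5 to 1317 bp or more at folds above 20 in both sets, and the medians lie farthest apart at folds of 5 to 20.

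At the 684 head-to-head pairs apart, most summits did not sit between the starts. The gap between the starts had a median of 165.5 bp, with quartiles of 98 and 271.5 bp. The summit lay inside the gap in 180 pairs, 26.3% (23.2 to 29.7). It lay inside the minus-strand gene in 259 and inside the plus-strand gene in 245, so neither strand held many more. The gap made up 12.7% of the bases where a summit could have met the rule, on average over the pairs with gaps under 1 kb, so that the share inside was larger than the share of bases. This excess was in the short gaps. The share of bases treats all these bases alike, whereas summits gathered near starts, which border each gap. A preference for the gap itself was therefore not tested. For gaps up to 100 bp, 16.5% (11.7 to 22.7) of summits lay inside against 3.25% of bases, and for 101 to 300 bp, 26.7% (22.4 to 31.5) against 10.2%. For 301 to 600 bp it was 30.4% (22.8 to 39.4) against 25.9%, and for the 21 pairs of 601 to 1000 bp, 61.9% (40.9 to 79.2) against 64.998%, with the share of bases within both intervals. Among the 180 summits in a gap, 94 (52.2%) lay in its middle 50%.

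**Figure D3:**
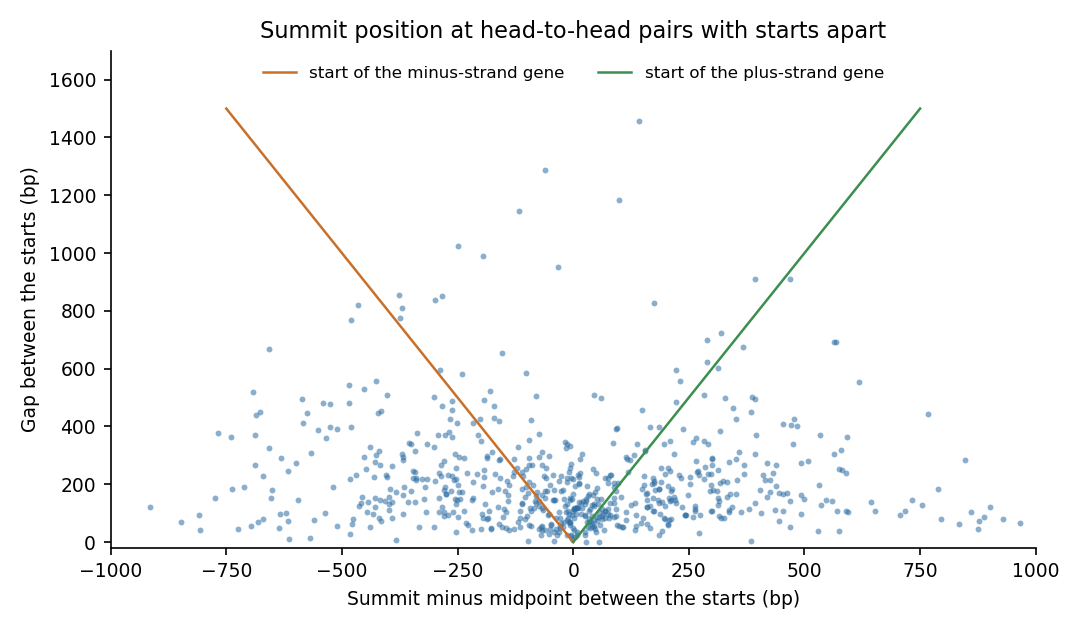
Distance of the summit from the midpoint between the starts (horizontal, bp) and gap between the starts (vertical, bp) for 684 head-to-head pairs apart, 1 point a peak. The orange and green lines mark the starts of the minus-strand and plus-strand genes, and the 180 summits between them lie in the gap. The others lie on both sides, and the median distance from the midpoint over all pairs is 208.5 bp.

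Seen from the nearer start, the summit was a short way into the gene. Its median offset was 99 bp downstream (80 to 122) at head-to-head pairs apart and 112 bp (102 to 120) at single-gene 5′ peaks. Upstream summits made up 26.3% and 34.0% (32.9 to 35.1) of these sets, though at a pair the gap limits how far upstream a summit can lie. At the pairs 66.7% (63.0 to 70.1) of summits lay within 200 bp of the nearer start, against 46.7% (45.5 to 47.9) at single-gene 5′ peaks, but a pair offers 2 starts to be near. Measured from 1 start a pair, that of the gene first by symbol, the share was 48.7% (45.0 to 52.4), and its interval overlapped that of the single-gene peaks. From that start 65.4% (61.7 to 68.8) of summits were upstream, where the partner gene also lies. The median offset was then -82 bp (-103 to -56), with negative values upstream. Which set has more upstream summits thus depends on the start chosen. The outermost RefSeq start is not always the start in use. With the listed start nearest to the summit in place of the outermost, a choice made after seeing the data, 31.9% of head-to-head summits were upstream of both and the offset was 66.5 bp, against 41.2% and 51 bp for single-gene peaks. The called interval of the peak reached both starts in 529 of the 684 pairs (77.3%) and in 171 of the 232 overlapping pairs (73.7%). In the overlapping pairs, whose shared stretch had a median of 413 bp, the summit lay in that stretch in 117 (50.4%).

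Counted from the genes rather than from the peaks, close head-to-head pairs held a summit more often than starts standing alone. A pair offers 2 starts for a summit to be near and a lone start only 1, so these shares are not like for like. Of all 19970 protein-coding genes, 58.7% had a summit within 1 kb of an end and 16.5% (3304 genes) had a shared peak. Of 796 head-to-head pairs with starts up to 1 kb apart, 682 (85.7%, 83.1 to 87.9) had a summit within 1 kb of both starts. A summit within 1 kb was found at 6336 of 12074 starts (52.5%, 51.6 to 53.4) without another protein-coding end within 2 kb, and at 4668 of 9649 (48.4%) that had no long noncoding RNA end there either. A start paired head to head with a long noncoding RNA lay between, with 798 of 1063 (75.1%, 72.4 to 77.6). The order was the same for peaks with a fold of 10 or more, at 61.9% of coding pairs, 56.7% of pairs with a long noncoding RNA and 33.2% of starts with neither. Among coding pairs, the share was 84.9% at gaps up to 100 bp, 88.2% at 101 to 300 bp, 86.1% at 301 to 600 bp and 60.5% (44.7 to 74.4) at 601 to 1000 bp. In the widest gaps a summit has the fewest bases in which it can lie near both starts. Where 3′ ends stood as close, 34 of 361 tail-to-tail pairs (9.42%, 6.82 to 12.9) had a peak. Whether the genes are expressed in A549 was not measured in these files, and its part in these shares was not tested.

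**Figure D4:**
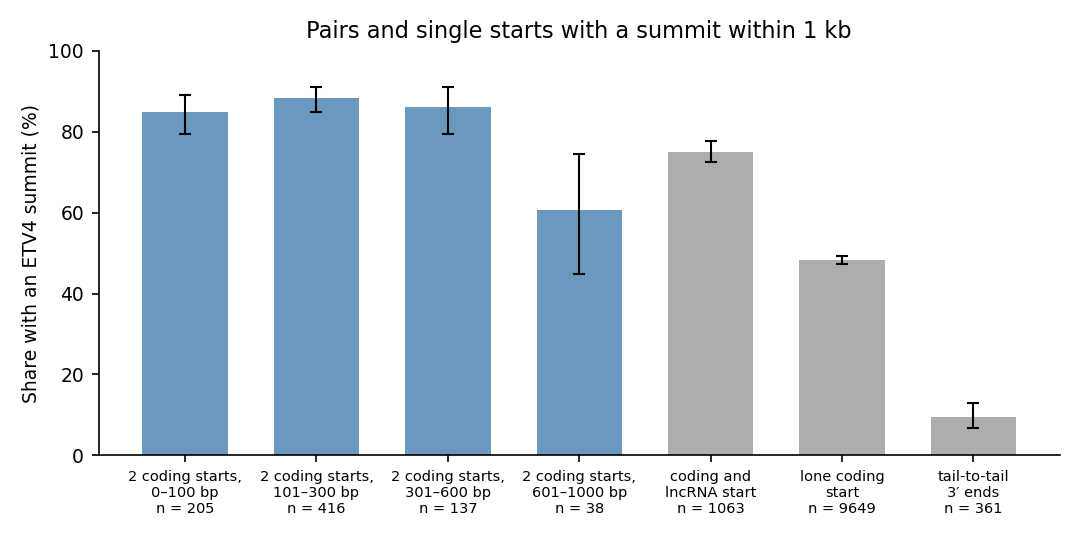
Share with a peak summit within 1 kb, in percent, for head-to-head coding pairs by gap (blue) and, in grey, for coding and long noncoding RNA pairs, lone coding starts and tail-to-tail pairs, with 95% Wilson intervals. Coding pairs stand between 60.5% and 88.2%, pairs with a long noncoding RNA at 75.1%, lone starts at 48.4% and tail-to-tail pairs at 9.42%.

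The ETS letters were looked up in the 300-base RefSeq promoter windows (250 bases before a start to 50 after it) that held a summit, on both strands. GGAA is part of CCGGAA, which is part of CCGGAAGT, so the searches overlap. A window was found for 350 of the 684 head-to-head pairs apart, from either gene of the pair. It was found for 2375 of the 6961 single-gene 5′ peaks, which offer 1 gene only. With a median gap of 165.5 bp, a window at a pair often held the partner's start too. The part of these differences in the shares below was not tested. GGAA was present in 98.6% (96.7 to 99.4) of the head-to-head windows and in 95.2% (94.7 to 95.7) of all 7041 outermost windows of the table, so nearly every window held it. CCGGAA was found in 62.6% (57.4 to 67.5) of the head-to-head windows and 43.7% (41.7 to 45.7) of the 2375 windows at single-gene 5′ peaks. It was found in 23.3% of all outermost windows and 8.79% of those of genes without a peak. The longer CCGGAAGT was found in 28.9% (24.4 to 33.8), 13.8% (12.5 to 15.3), 6.39% and 1.33% in the same order. The overlapping pairs had CCGGAA in 54.8% (46.1 to 63.3), and starts beside a 3′ end in 56.7% (46.8 to 66.1).

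GC content was similar in the windows of both peak sets. The median GC content was 66.0% in head-to-head windows and 68.3% in single-gene windows. It was lower in all outermost windows, at 62.7%, and in those of genes without a peak, at 54.7%. Among windows of 60 to 70% GC, CCGGAA was found in 66.3% (58.9 to 72.9) of those at head-to-head pairs apart and 51.6% (48.3 to 54.8) of those at single-gene peaks. In the same GC range it was found in 31.1% (29.2 to 32.9) of all outermost windows and 13.4% (10.9 to 16.2) of those of genes without a peak. The share rose with fold in both peak sets. At head-to-head pairs, apart or overlapping, it went from 45.2% at folds under 5 to 68.8% (56.6 to 78.8) at 40 or more, and at single-gene peaks from 28.4% to 61.8% (56.3 to 67.1). The interval of the head-to-head share lay above that of the single-gene share at folds of 10 to 20 and 20 to 40, where the shares were 61.0% against 42.6% and 68.0% against 48.6%. At folds of 40 or more the intervals overlapped. Matches also gathered at the summit. Within 25 bases of it there were 5.79 CCGGAA matches per 1000 positions (4.85 to 6.86) at head-to-head pairs and 4.55 (4.17 to 4.96) at single-gene peaks, and at 150 to 200 bases there were 1.28 (0.805 to 1.94) and 0.737 (0.579 to 0.926). A match is a description of the letters and not of a bound site.

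**Figure D5:**
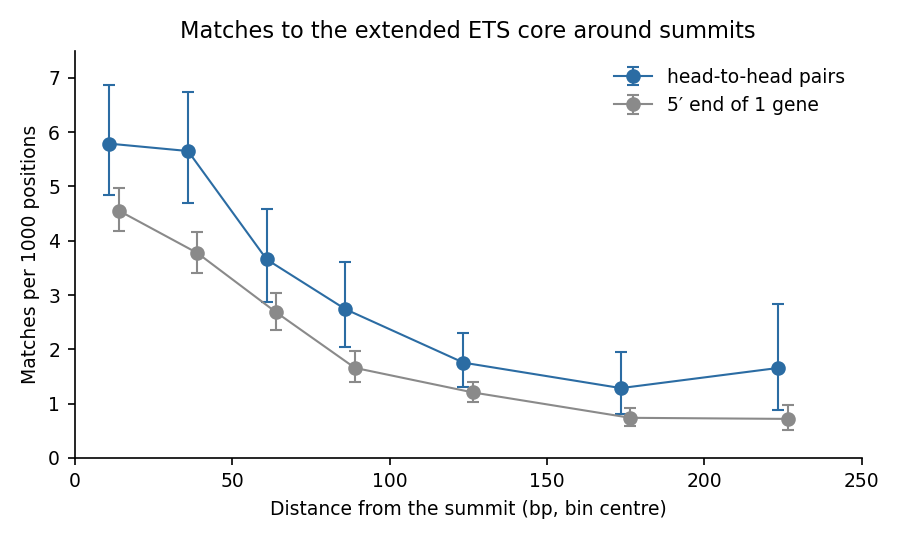
CCGGAA matches per 1000 positions, on both strands, against distance from the summit in bp, for promoter windows at head-to-head pairs (blue) and at the 5′ end of 1 gene (grey), with exact Poisson intervals. The lines start at 5.79 and 4.55 near the summit and both lie below 1.5 at 150 to 200 bp.

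The genes at the shared peaks were counted by function, beside the 16.5% of all protein-coding genes with such a peak. A gene can be in this count only where another protein-coding end lies close by, and 36.4% of all genes have one within 2 kb. Complex I of the respiratory chain had the highest share of the groups listed. Of its 46 subunit and assembly factor genes, taken by NDUF symbols, 76.1% have a close neighbour, and 26 of the 46 (56.5%) had a shared peak. The readthrough gene NDUFC2-KCTD14 was counted among the 26 beside NDUFC2. The peak at NDUFA13, a complex I subunit, and the kinase gene TSSK6 had a fold of 67.2, with the summit outside the gap and 29 bp from the nearer start. Of 77 mitochondrial ribosomal protein genes, 34 (44.2%) had a shared peak, the strongest at MRPL27/EME1 with a fold of 73.1. Of 84 cytosolic ribosomal protein genes it was 26 (31.0%), and of 35 aminoacyl-tRNA synthetase genes, which charge tRNAs with amino acids, 13 (37.1%). The proteasome group was taken by PSM symbols alone, not by function, and PSMC3IP was counted in it. Of its 50 genes, 14 (28.0%) had a shared peak. Set against genes with a close neighbour only, the share was 45.5% for all genes. It was 74.3% for complex I, 68.4% for the synthetases, 66.7% for cytosolic and 65.4% for mitochondrial ribosomal proteins, 61.4% for replication and repair and 56.0% for the PSM symbols. Histones at 46.3% and ZNF genes at 44.4% were near the share of all genes.

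The clustered histone genes, which lie packed at chromosome 6 and elsewhere, had a lower median fold than these groups. Of 72, 54 had a close neighbour and 25 (34.7%) had a shared peak, but the 15 peaks had a median fold of 6.58, with 3 at 10 or more, against 67.0% of all 1749 at 10 or more. The other groups had median folds between 12.3 and 15.4, near the 15.3 of the whole set. Of 510 zinc finger genes named ZNF, 26.5% have a close neighbour and 60 (11.8%) had a shared peak. Among 390 olfactory receptor genes, which are clustered and used mainly in the nose, 17 had any peak and none had a shared 1, and of the 55 keratin genes, of which only 2 have a close neighbour, none had a shared peak.

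Genes of DNA replication and repair were listed because the study asks about ETV4 at replication origins and at the promoters of replication genes. Of 82 such genes, 73 (89.0%) carried at least 1 summit within 1 kb, beside 58.7% of all protein-coding genes. A shared peak was found at 27 (32.9%), beside 16.5% of all genes, and 53.7% of the 82 have a close neighbour, beside 36.4%. Of these 27 genes, 20 were at a head-to-head pair, beside 1778 of the 3304 genes with a shared peak. The 28 peaks had a median fold of 12.3, with quartiles of 7.07 and 19.5, and 16 of them were at 10 or more. At 1 of the 28 peaks, PRKDC/MCM4, both genes were on the list, and at the others the partner was a gene outside it. The strongest was at MCM7, a subunit of the replicative helicase, and AP4M1, of an adaptor complex in vesicle transport, with a fold of 61.9 and a pileup of 270 (239 to 304). MCM8, a helicase paralog in recombination, and TRMT6 had 46.8. POLE3, a small subunit of DNA polymerase epsilon, and C9orf43 had 40.4.

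Repair genes came next. BRCA1, of homologous recombination, and NBR1 had a fold of 30.6 and the wide interval of 2520 bp, with the summit 970 bp from the outermost start of BRCA1 and 2 long noncoding RNA ends within 1 kb. ATM, the kinase that senses double-strand breaks, and NPAT, a histone gene activator, had 24.1. Here the summit lay in the gap of 428 bp, 43 bp from NPAT. MCM4 and PRKDC, the catalytic subunit of the DNA-dependent kinase, had 17.1, with the summit 11 bp inside PRKDC and 816 bp from MCM4. PCNA, the sliding clamp, and CDS2 had 15.3. At the low end were MCM2 with TPRA1 at 4.84, LIG1, a DNA ligase, with ZSWIM9 at 3.40, and ORC6, of the origin recognition complex, with VPS35 at 3.35. The MCM2 summit, whose sequence is shown above, lay in the gap of 179 bp, 111 bp from the start of MCM2 and 69 bp from that of TPRA1. Its pileup of 20 (12.2 to 30.9) and that of 8 (3.45 to 15.8) at ORC6 had intervals below the 98 (79.6 to 119) at MCM4, while the control levels were 3.34, 1.69 and 4.78. MCM5, MCM10, ORC1, TOP1, JUNB, HPRT1, CTCF, PIK3CB and EGR1, which the study also examined, had no shared peak. That does not mean that they had no peak, since a gene without another protein-coding end close by cannot meet the rule. Single-gene peaks at these genes are not given here. The study reports ETV4 binding at the promoters of MCM5, MCM10 and ORC1 and at the TOP1, JUNB, HPRT1 and CTCF loci.

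Of 21 listed textbook neighbours, 17 had a shared peak, beside 85.7% of all close head-to-head pairs, with folds from 5.01 to 45.8 and a median of 15.3. Next to PSMD13/SIRT3, the highest was HADHA/HADHB, the subunits of the mitochondrial trifunctional protein, at 37.8 with the summit 216 bp inside HADHA. SURF1/SURF2, described above, and GART/SON at 27.3 followed. TAP1/PSMB9, of antigen processing, had 18.1, and HSPD1/HSPE1, the mitochondrial chaperonins, 16.1. The lowest were TBP/PSMB1 at 5.01, MRPS12/SARS2 at 5.61 and COL4A3/COL4A4, collagens of basement membrane, at 5.95. The collagen pairs COL4A1/COL4A2 and COL4A5/COL4A6 stand as close, with ends 127 and 380 bp apart, and had no peak at either gene. PPAT/PAICS and LRRC49/THAP10 could not meet the rule, as their nearest outermost ends in the table were 17145 and 27964 bp apart.

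The other strong peaks belonged to genes of many kinds. After SENP1/PFKM and GON7/UBR7 came CCAR2/C8orf58 at 109, ACAD8/THYN1 at 101 and SLC52A2/FBXL6 at 96.9. MAP2K4, a stress kinase, with ZNF18 had 95.1, TMEM232/SLC25A46 had 90.5, DDB1, an adaptor in the recognition of UV damage, with TKFC had 88.6, CFAP184/TADA2B had 87.8 and JRK/PSCA had 85.6. The pileups of these 10 peaks ran from 237 to 571 fragments. The lowest folds were 2.57 at KIF17/DDOST, 2.74 at QRSL1/RTN4IP1, 2.76 at ZNF207/C17orf75, 2.82 at TYW3/CRYZ and 2.95 at CHURC1/CHURC1-FNTB, each from 11 to 18 fragments. Of the 4 peaks at 4 genes, the strongest, at POC1B, GALNT4 and their readthrough genes, had 59.2. By chromosome, the shared share of peaks at gene ends ran from 9.55% (5.88 to 15.2) on chromosome 18 to 21.0% (17.5 to 24.9) on chromosome 16.

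At the edge of the rule, the values on both sides overlapped. The 104 peaks whose second gene ended 901 to 1000 bp from the summit had a median fold of 12.04, with quartiles of 6.58 and 24.9. The 112 with the second gene 1001 to 1100 bp away had 9.40, with quartiles of 5.54 and 26.0. Over all shared peaks the median distance was 141 bp to the nearest end and 412 bp to that of the second gene.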

How the data were processed

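ChIP-seq peaks were analysed from 1 Flag-ETV4 immunoprecipitate. The matching input had no file of its own and entered only through the fold. The authors deposited a list in narrowPeak layout whose summits carry a fold (the ratio of immunoprecipitate to control coverage) and p and q values on the −log10 scale. A display score of the deposited list was not used. The submitters' processing notes name Bowtie2 2.4.1, SAMtools, MACS2 2.2.7.1, deepTools 3.5.0 and hg38, with no role or order. Parameters and the treatment of duplicate reads are not given in the sources used here, and neither is the number of sequenced reads. The Flag antibody is from Sigma in the labels and from CST in the methods.

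Genes were the 19970 protein-coding genes of RefSeq (GRCh38.p14) on chromosomes 1 to 22 and X, by their outermost ends. Directions and sequences came from RefSeq promoter windows, which were available for part of the genes. Pileups and control levels were computed from the fold, with a pseudocount of 1, and the Poisson −log10 p-value, with a largest relative misfit of 5.88e-06. This was tested on simulated data. Shares have Wilson intervals, medians order-statistic intervals and pileups exact Poisson intervals, at 95%. Python 3.11.15 with scipy 1.17.1 was used. Markers of the cell line cannot be checked in a peak list.

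Pairs named were those at genes the study examined by ChIP, those on a list of 21 textbook neighbours, the 10 highest and 5 lowest folds, and the peaks at most genes. A further rule, for head-to-head pairs with both genes of replication or repair, found no peak. Other peaks named from gene groups were picked with their values in view. The members and all lists were chosen with earlier results of these data known. Alternatives changed the window, the thresholds on peaks, the ends and the genes.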

Additional observations from a re-analysis of the deposited data

How the results depend on the processing

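No paired analysis was possible because there was 1 immunoprecipitate and no test. With 1 library, nothing here can be set against variation between cultures, and pileups near 10 fragments leave folds uncertain. Values are given as shared peaks against single-gene peaks where both are named. A window of 500 bp gave 1066 shared peaks, 12.2% of peaks at gene ends, with a median fold of 16.4, 31.7% of head-to-head summits in the gap and a peak at 64.2% of close pairs. A window of 2 kb gave 2654 peaks and 19.4%, with folds of 14.2 against 14.0 and widths of 959.5 against 865 bp. Peaks with a fold of at least 5 had median folds of 17.2 against 17.2 and widths of 1114 against 1017 bp, and 79.4% of close pairs had 1. With a −log10 q of at least 10 the folds were 18.3 against 19.3, with 47.5% of shared peaks above the single-gene median, widths of 1150 against 1085 bp and 74.6% of close pairs with a peak. The peak interval in place of the summit gave a share of 17.9%, a fold of 16.2 with 52.8% above the single-gene median, and a width of 1082 bp. Without readthrough genes and identical ends the share was 14.8%. With the strongest peak of each set of genes, single-gene peaks had a fold of 16.4 and a width of 984 bp. With 5′ ends only, 1018 peaks (12.03%) had a fold of 17.1 against 16.0 and a width of 1113.5 against 990 bp. Gaps up to 2 kb put a peak at 81.4% of pairs. Among alternatives chosen after seeing the data, single-gene 5′ peaks had a fold of 16.2 and a width of 994 bp, those without a long noncoding RNA end 15.8 and 962 bp, and the nearest listed starts put 31.9% of summits in the gap. Shared peaks had the larger median width under each of these settings that gave both widths. The median fold changed its order with the setting, and the cause was not tested.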
